A study of Mus musculus with 4 samples.

Results

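Hox genes were examined on 4 arrays of mouse mammary gland cells sorted 3 days after transplantation. They were taken as every gene whose symbol in the array's annotation is Hoxa, Hoxb, Hoxc or Hoxd followed by a number and nothing else, each represented by the brightest of its probe sets. This gave 34 genes of 17097 genes in all, read by 42 probe sets. One group of 2 arrays came from transplants of 10000 BC cells alone, called the multipotent condition in the labels. The control group of 2 arrays came from transplants of 8000 LC cells mixed with 2000 BC cells, called the unipotent condition. In mammary work these letters commonly stand for basal and luminal cells, an expansion the labels do not give. The labels give RNA from 50 sorted cells, and name neither the strain, age and genotype of the mice, nor the gate of the sort, nor whether each array had its own animals. The p-values therefore reflect only how these arrays varied, and that variation may be technical. The number of arrays limits the precision, and an exact permutation test of 2 against 2 cannot go below p = 0.333.

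Hox genes encode transcription factors that bind DNA through a homeodomain and give cells their position along the body axis. They lie in 4 clusters, named a to d, and genes with the same number in different clusters, the paralogs, derive from a common ancestor. Low-numbered genes act towards the head and high-numbered genes towards the tail and the tips of the limbs. Adult fibroblasts and epithelia keep part of the Hox pattern of the place they came from. In the mammary gland Hoxc6 and Hoxc8 take part in placing the early rudiments, the paralogs Hoxa9, Hoxb9 and Hoxd9 are needed together for growth of the gland at pregnancy, and Hoxd10 also takes part in its development.

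Hoxd9 and Hoxd10 are neighbours in the Hoxd cluster, and their values varied unequally, Hoxd9 spanning 2.0 log2 units over the 4 arrays, the widest of all members, and Hoxd10 0.5. Hoxd10 lay at or below percentile 5.10 of all genes on every array, and whether low signal kept its spread small was not tested. The 250 bases before the start of each of these 2 genes are shown, 5′ to 3′ on the plus strand, from RefSeq on GRCm38.p6, with each CG dinucleotide, the site of DNA methylation, in capitals. The Hoxd9 stretch is chr2:74697513-74697762 and the Hoxd10 stretch is chr2:74691641-74691890.
Hoxd9: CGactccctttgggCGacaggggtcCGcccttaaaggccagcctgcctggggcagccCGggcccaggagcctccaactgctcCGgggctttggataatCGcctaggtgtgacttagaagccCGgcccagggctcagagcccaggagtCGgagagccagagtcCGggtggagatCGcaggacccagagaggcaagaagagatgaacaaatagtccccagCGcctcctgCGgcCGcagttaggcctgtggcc
Hoxd10: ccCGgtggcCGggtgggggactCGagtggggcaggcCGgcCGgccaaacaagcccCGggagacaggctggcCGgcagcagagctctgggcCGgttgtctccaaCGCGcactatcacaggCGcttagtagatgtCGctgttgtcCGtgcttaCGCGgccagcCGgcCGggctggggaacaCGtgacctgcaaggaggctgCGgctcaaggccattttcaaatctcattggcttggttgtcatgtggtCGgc
The Hoxd9 stretch held 13 CG dinucleotides and the Hoxd10 stretch 20. The RefSeq table held 23 such stretches for 21 of the 34 Hox genes. Their median was 12 CG dinucleotides, from 2 to 35, against a median of 6 over all 32851 stretches of this length. A pair of motifs was searched on both strands without regard to overlap. TGATNNAT, a form of the joint site of Hox proteins and their TALE partners, was in 4 of the 23, those of Hoxa2, Hoxb1, Hoxb8 and Hoxd11, and in 7.68% of all stretches. TATAAA, the TATA box, was in 4 of the 23, those of Hoxa10, Hoxb8, Hoxd4 and Hoxd13, and in 12.4% of all. Neither motif was in the 2 stretches printed.

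Most Hox genes had low mean values over the 4 arrays. Values are log2 expression, so that 1 unit is a 2-fold difference. Over all arrays and members they ran from 2.64 for Hoxd1 on BC alone replicate 1 to 6.57 for Hoxd9 on the same array. A mean over the 4 arrays below 4.46, the median of all probe set means, was seen for 24 of the 34 genes, and 17 were below that line on every array. The other 10 were Hoxa3, Hoxa7, Hoxa9, Hoxb2, Hoxb3, Hoxb4, Hoxc5, Hoxc8, Hoxc9 and Hoxd9, so 3 of 4 measured genes of paralog group 9 were among them and none of the 10 genes numbered 10 to 13. Of all genes 61.2% lay above that line. No detection calls came with the values, and a low value is therefore only described as low. Brightness also depends on the probes, so levels of different genes are not ranked here. In a sort of few cells, fewer cells of a type and less RNA per cell cannot be told apart.

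**Figure D1:**
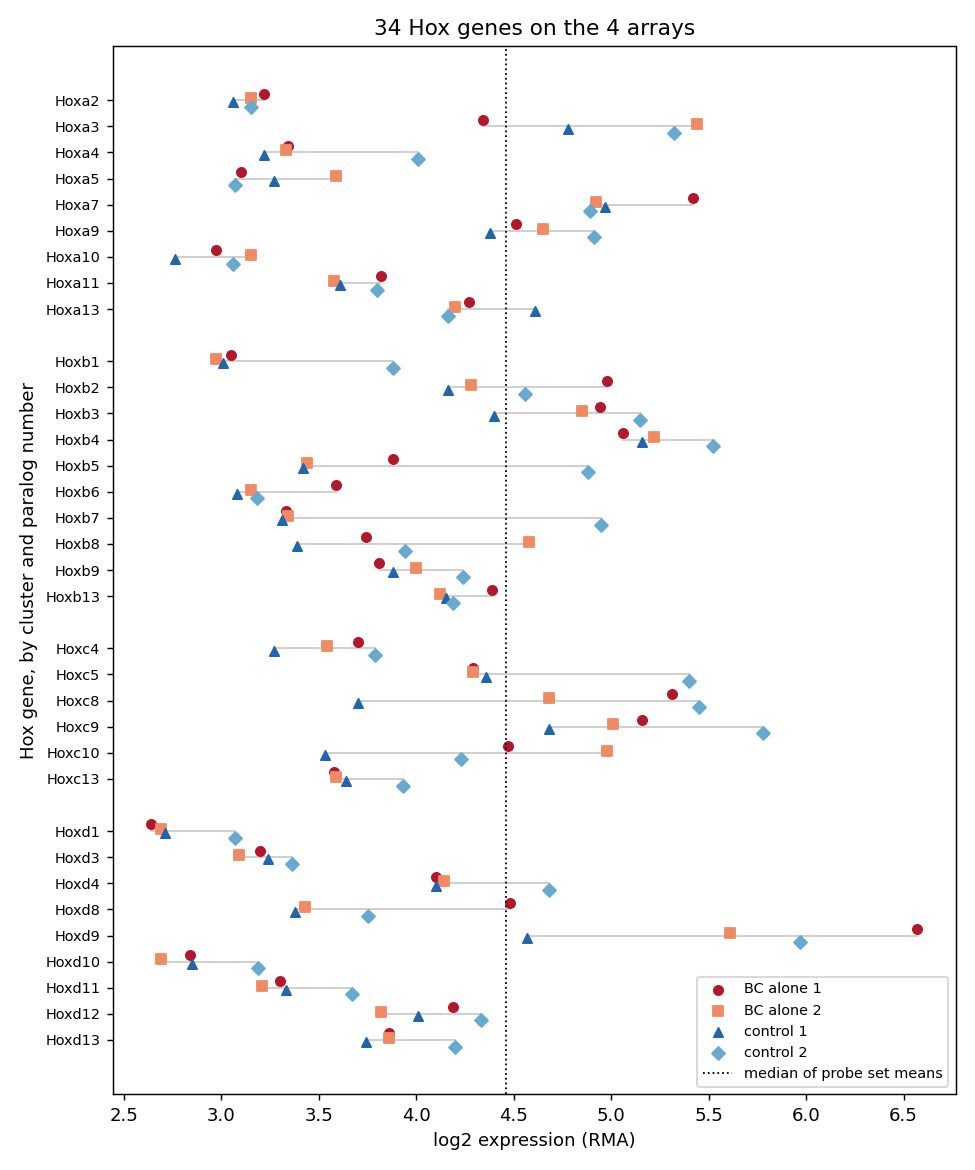
Log2 expression of each of the 34 Hox genes on the 4 arrays, by cluster and paralog number, with each point 1 array and the dotted line at 4.46, the median of all probe set means. Of the genes 17 lie left of the line on every array, Hoxd9 spans 4.57 to 6.57, and control replicate 2 is the rightmost point for 20 of the 34 genes.

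The BC alone and control arrays were compared to ask which Hox genes differ between these transplants. The control had fewer BC cells as well as added LC cells, so effects of BC cell number and of LC cells cannot be told apart. Limma called none of the 34 Hox genes at an adjusted p of 0.05, and 0 at an unadjusted p under 0.05. Among all genes 0.0% passed adjusted and 3.98% unadjusted. The adjusted p of the Hox genes ran from 0.842 to 0.995. A mean higher in BC alone was found for 14 and a lower one for 20, beside 46.7% and 52.9% of all genes. The median difference was -0.13 against -0.04 for all genes. That direction was not stable, since cyclic loess gave 21 higher and 13 lower, quantile normalization of the deposited values 19 and 15, and median centring 17 and 17, the last moving the median of all genes from -0.04 to 0.09. Differences ran from -0.80 for Hoxb7 to 0.85 for Hoxc10.

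No Hox gene was at least 2-fold different without overlap between the groups, a size that 5.69% of all genes reached. Hoxc10 reached it after cyclic loess, where 3.12% of all genes did. The groups did not overlap for 7 of the 34 Hox genes, 1 higher and 6 lower in BC alone. Of all genes 16.8% were higher without overlap and 19.6% lower. This split also turned with the scaling. Cyclic loess gave 9 Hox genes higher and 2 lower without overlap (all genes 16.9% and 18.2%), quantile normalization of the deposited values 7 and 2 (16.5% and 18.0%), and median centring 5 and 5 (21.7% and 13.9%). The higher one was Hoxc10, and the lower ones were Hoxc5, Hoxc13, Hoxd1, Hoxd3, Hoxd10 and Hoxd11. A difference larger than the gap between replicates in both groups was seen for Hoxc10 and Hoxd3 only, 2 of 34, against 17.5% of all genes. The 95% interval of the difference included 0 for every member. It lay within 1 log2 unit of 0 for 13 of them. For these 13 a 2-fold difference in measured signal was outside the interval. Among them only Hoxa9 and Hoxb4 had a mean above 4.46, and whether low signal narrowed the intervals was not tested. For the other members a 2-fold difference in at least 1 direction was inside the interval.

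**Figure D2:**
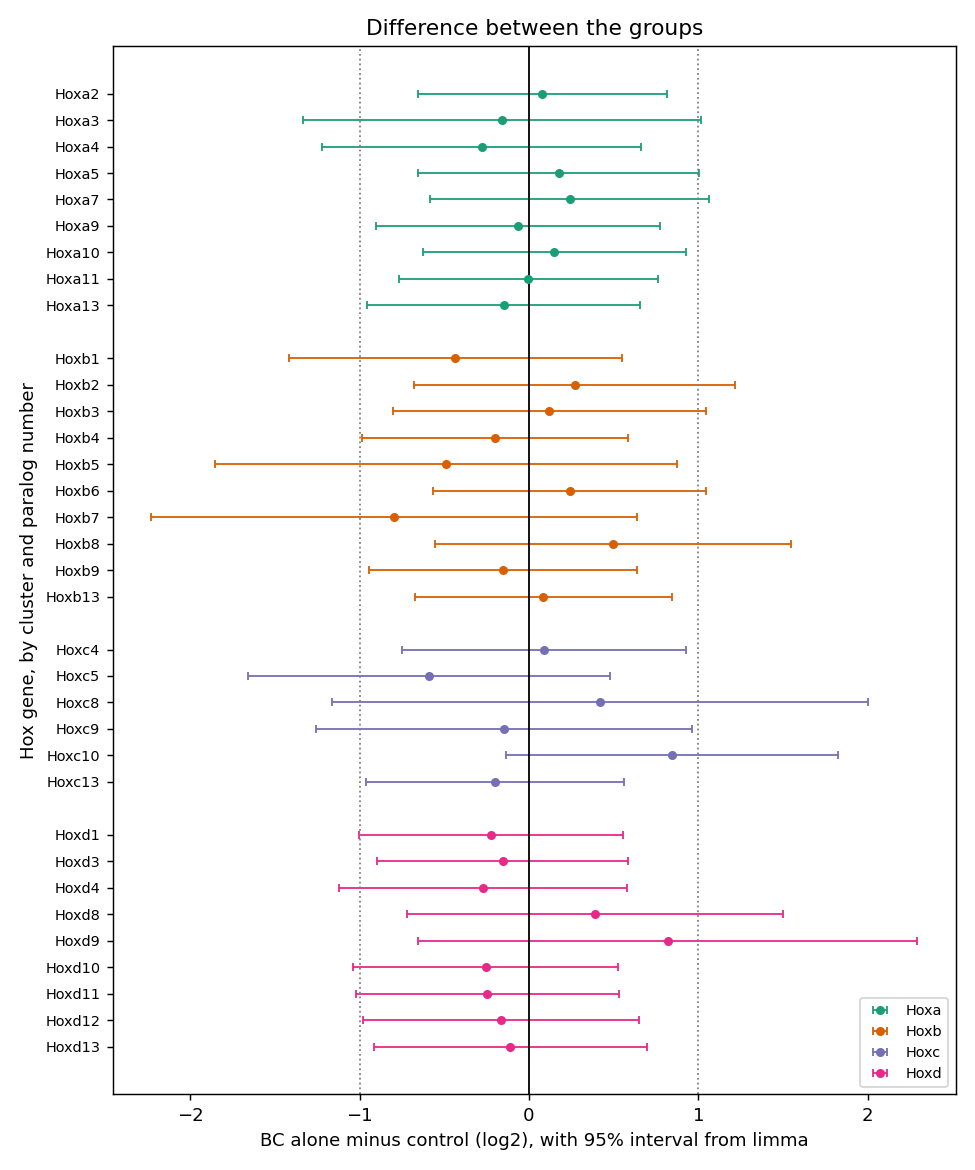
Difference between BC alone and control for each Hox gene in log2 units, with the 95% interval of limma's fit, coloured by cluster. Every interval crosses 0, and the points run from -0.80 for Hoxb7 to 0.85 for Hoxc10.

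Posterior genes, numbered 9 to 13, included Hoxd9 with the widest spread and Hoxc10 with the most positive difference. Of these 14 genes 4 had a higher mean in BC alone and 10 a lower one, beside 46.7% and 52.9% of all genes. Cyclic loess gave 10 higher and 4 lower. Hoxd9, one of the mammary group 9 paralogs, had log2 values of 6.57 and 5.61 on the BC alone arrays and 4.57 and 5.97 on the control arrays. The groups overlapped, control replicate 2 lying between the BC alone arrays and control replicate 1 below both. The means were 6.09 ± 0.68 and 5.27 ± 0.99 (SD, n = 2), a difference of 0.82 ± 0.59 (SE, limma adjusted p = 0.842). Without control replicate 1 the difference was 0.12, and without control replicate 2 it was 1.52. Ranked within each array among all genes, Hoxd9 stood at percentiles 72.6 and 59.7 in BC alone and 43.1 and 70.0 in the control. Its paralog Hoxa9 had 4.51 and 4.65 against 4.38 and 4.91, and Hoxb9 had 3.81 and 4.00 against 3.88 and 4.24. Both overlapped between the groups, with differences of -0.07 ± 0.34 and -0.16 ± 0.32. The last of these paralogs, Hoxc9, had 5.16 and 5.01 against 4.68 and 5.78. The control arrays lay on either side of BC alone, and the difference was -0.15 ± 0.44.

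Hoxc10, which patterns the lower trunk and hindlimb, had 4.47 and 4.98 in BC alone and 3.53 and 4.23 in the control. Both BC alone arrays were above both control arrays. The means were 4.73 ± 0.36 and 3.88 ± 0.50 (SD, n = 2), a difference of 0.85 ± 0.39 that did not pass (limma adjusted p = 0.842). Hoxc10 was singled out after its values were seen, as were Hoxb5, Hoxb7, Hoxb8, Hoxc5, Hoxc9 and Hoxd8. Within the arrays it ranked at percentiles 41.1 and 50.3 against 19.8 and 28.7. Its paralog Hoxd10 had 2.84 and 2.69 against 2.85 and 3.19, a difference of -0.26 ± 0.31, and lay at or below percentile 5.10 of all genes on every array. Hoxa10, the third measured paralog, lay between 2.76 and 3.15 on the 4 arrays, with the groups overlapping. The 7 genes numbered 11 to 13 varied by 0.24 to 0.51 over the arrays, and each mean was below 4.46.

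Central genes, numbered 4 to 8, pattern the neck and trunk. All 3 measured genes of paralog group 8 had a higher mean in BC alone, and each overlapped with the control. Hoxc8, a thoracic gene that acts where mammary rudiments form, had 5.31 and 4.68 in BC alone and 3.70 and 5.45 in the control. Here the 2 control arrays were the lowest and the highest of the 4, and the difference of 0.42 ± 0.63 was smaller than their gap of 1.75. Hoxb8 had 3.74 and 4.58 against 3.39 and 3.94, a difference of 0.50 ± 0.42. Hoxd8 had 4.48 and 3.43 against 3.38 and 3.75, a difference of 0.39 ± 0.44, and rested on BC alone replicate 1, without which it was -0.14. A dimmer Hoxd8 probe set differed by -0.07.

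Hoxb5, Hoxb7 and Hoxc5 were high on a single array, control replicate 2. Hoxb7 had 3.33 and 3.34 on the BC alone arrays, then 3.31 and 4.95 on the control arrays. Without that array its difference was 0.03 in place of -0.80 ± 0.57. Hoxb5 had 3.88 and 3.44 against 3.42 and 4.88, and its difference of -0.49 ± 0.54 became 0.24 without control replicate 2. Hoxc5 had 4.29 on both BC alone arrays and 4.36 and 5.40 in the control, a difference of -0.59 ± 0.43 that was -0.07 without control replicate 2. Another, slightly dimmer Hoxc5 probe set pointed the other way, at 0.39. On the other 3 arrays each of these genes varied by less than 0.5 log2 units.

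Hoxa5, a central gene that acts in the axis, lung and mammary gland, had 3.10 and 3.59 in BC alone and 3.27 and 3.07 in the control. The difference of 0.18 ± 0.33 became -0.07 without BC alone replicate 2. Hoxa2, an anterior gene of the hindbrain and face, had the smallest spread of all members, 3.22 and 3.15 against 3.06 and 3.15. The 7 anterior genes, numbered 1 to 3, had differences between -0.44 and 0.27.

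By cluster the median difference was -0.01 for the 9 Hoxa genes, -0.04 for the 10 Hoxb genes, -0.03 for the 6 Hoxc genes and -0.17 for the 9 Hoxd genes. Without 1 array these ran from -0.07 to 0.12 for Hoxa, -0.30 to 0.17 for Hoxb, -0.40 to 0.38 for Hoxc and -0.34 to -0.01 for Hoxd. By class it was -0.16 for the 7 anterior, 0.09 for the 13 central and -0.13 for the 14 posterior genes. Without 1 array the ranges were -0.26 to 0.11, -0.38 to 0.20 and -0.33 to 0.10. A lower mean in BC alone was found for 7 of 9 Hoxd genes, all but Hoxd8 and Hoxd9, beside 52.9% of all genes. The count turned with the scaling, cyclic loess giving 4 of 9 and both median centring and quantile normalization giving 6 of 9. Of the Hoxa genes 5 of 9 had a lower mean, and 2 of 9 after cyclic loess. Among all genes below the 4.46 line the median difference was -0.19, and 8 of the 9 Hoxd genes lay below that line. Of 6 Hox genes with several probe sets, 5 held both signs, namely Hoxa3, Hoxb3, Hoxb4, Hoxc5 and Hoxd8, while both of Hoxd13 were lower in BC alone.

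The Hox genes had a larger median gap between the 2 control arrays than between the group means. The 2 measures are unlike, since group means average 2 arrays and a gap between single arrays does not. The median gap between the control arrays was 0.42 over the 34 genes, the median gap between the BC alone arrays 0.16, and the median size of the difference between group means 0.21. For all genes these were 0.52, 0.20 and 0.32. Control replicate 1 was the lowest array for 17 of the 34, for 20.6% of all genes and for 27.1% of genes below the 4.46 line. Control replicate 2 was the highest for 20 of the 34, for 40.4% of all genes and for 71.5% of genes below the 4.46 line. The median Hox value was 3.87 and 3.84 on the BC alone arrays against 3.63 and 4.20 on the control arrays. Control replicate 2 also had a narrower spread over all probe sets, with an SD of 1.44 against 1.90 to 1.92, and a higher median, at 4.62 against 4.37 to 4.38. The deposited columns thus did not share 1 distribution, and whether the 4 arrays were normalised together is not given in the sources used here. Its part in the Hox values was not tested.

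Against control replicate 1 alone, 17 of 34 Hox genes were higher on both BC alone arrays and 7 were lower on both, where 33.2% and 33.8% of all genes were. Hoxc8, Hoxc10 and Hoxd9 were then at least 2-fold higher without overlap, 3 of 34, as were 2.19% of all genes, and none was at least 2-fold lower, as were 2.09%. The median Hox difference was 0.11 without control replicate 2, and none passed (smallest limma adjusted p = 0.666). Against control replicate 2 alone, 4 were higher and 20 lower on both BC alone arrays, where 38.4% and 45.4% of all genes were. Hoxb5, Hoxb7 and Hoxc5 were then at least 2-fold lower, as were 4.23% of all genes, and none was 2-fold higher, as were 18.1%. The median Hox difference was then -0.33, and again none passed (smallest limma adjusted p = 0.084), with 7 at an unadjusted p under 0.05 beside 34.6% of all genes. In each of these fits the lone control array was assumed to vary like the BC alone arrays, so its p-values leave out the control's own spread. The genes that were 2-fold different thus turned with the control array used, with none in common. Leaving out BC alone replicate 1 put Hoxc10 at that size, and leaving out BC alone replicate 2 put Hoxd9 there, beside 7.17% and 7.24% of all genes higher.

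**Figure D3:**
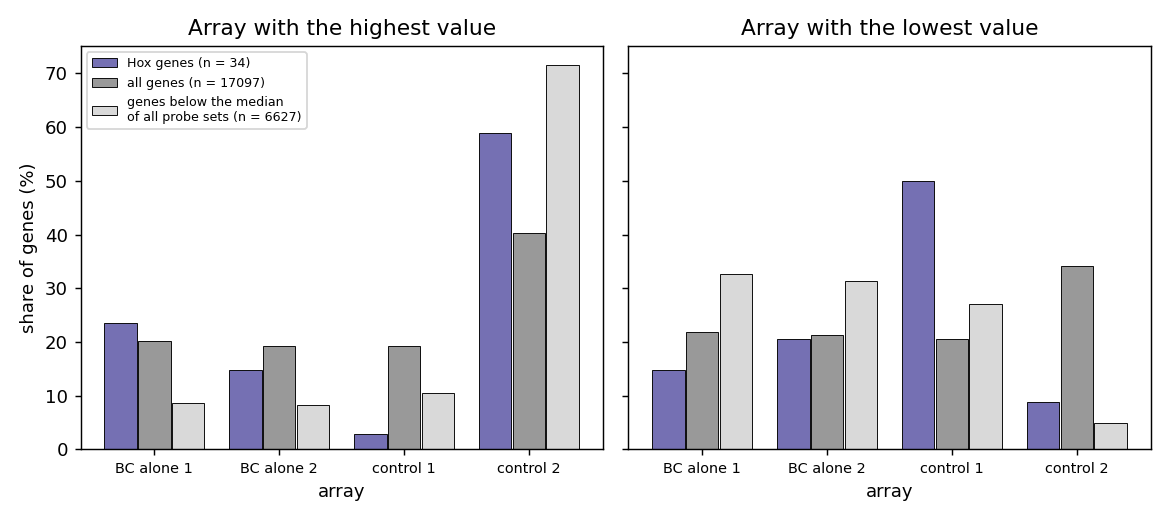
Share of genes in percent whose highest value (left) or lowest value (right) lay on each array, for the 34 Hox genes, all genes and genes below the median of all probe set means. Control replicate 2 was highest for 58.8% of Hox genes, 40.4% of all genes and 71.5% of genes below that median. Control replicate 1 was lowest for 50.0%, 20.6% and 27.1% of them.

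Fibroblast, endothelial, pericyte, basal and luminal markers mostly had higher means in BC alone, where the median Hox difference was -0.13. Of all genes 46.7% had a higher mean. Immune, skeletal muscle and Schwann markers had a higher mean for 3 of 7, 1 of 5 and 1 of 2, and adipocyte markers for 2 of 3. Of 14 fibroblast markers 12 had a higher mean in BC alone, with a median difference of 1.58, and their mean level was 7.57 and 7.82 for BC alone and 6.83 and 5.95 for the control. The receptors Pdgfra and Pdgfrb, both in the fibroblast list, differed by 0.19 and -0.11. Pdgfra lay below the median of all probe set means on every array, and whether low signal kept its difference small was not tested. Pdgfrb had 6.74 and 6.62 for BC alone, between the control values of 6.20 and 7.37. All 6 endothelial markers had a higher mean, with levels of 6.39 and 6.49 against 5.60 and 5.63, as had all 3 pericyte markers, with 7.07 and 6.98 against 5.09 and 5.51. The 7 basal markers, among them Krt5, Krt14 and Trp63, averaged 9.10 and 8.75 for BC alone and 9.22 and 5.97 for the control. A higher mean in BC alone was seen for 6 of these 7, with a median difference of 1.405. Against control replicate 1 alone it was 1 of 7, and against control replicate 2 alone 6 of 7. The 11 luminal markers averaged 7.32 and 7.59 against 7.25 and 6.46. A higher mean was seen for 8 of these 11, with a median difference of 0.775. Against control replicate 1 alone it was 6 of 11, and against control replicate 2 alone 10 of 11. Immune markers averaged 4.99 and 5.26 against 5.29 and 5.28, adipocyte markers 5.02 and 5.20 against 4.69 and 4.95, skeletal muscle markers 3.72 and 3.70 against 3.65 and 4.00, and the 2 measured Schwann markers 6.26 and 6.62 against 6.30 and 5.22. No marker passed, and the part of these cells in the Hox values was not tested.

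Hox proteins bind DNA with TALE homeodomain partners, and their genes are held silent by Polycomb and kept active by trithorax complexes. None of the 71 measured genes in these and 2 further lists passed (0 at adjusted p 0.05 in limma, 3 at an unadjusted p under 0.05, beside 3.98% of all genes). Of 8 TALE genes 3 had a higher mean in BC alone, beside 46.7% of all genes. Against control replicate 1 alone it was 3, and against control replicate 2 alone 6. Meis1, a Hox cofactor, had 5.14 and 5.33 against 4.75 and 5.18. Among 15 Polycomb genes 11 had a higher mean, beside 46.7% of all genes, with a median difference of 0.14 against -0.04. All 15 had a mean above 4.46. Without the genes below that line, 65.5% of genes had a higher mean, with a median difference of 0.27. Against control replicate 1 alone 7 of 15 were higher (median -0.10), and against control replicate 2 alone 13 of 15 (median 0.50). Rnf2, a ubiquitin ligase of the complex, and Cbx7, a reader of its histone mark named here after its values were seen, did not overlap between the groups, 2 of 15 against 36.4% of all genes.

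Kmt2b, a histone methyltransferase of the trithorax group, had the smallest p of the 9 trithorax and demethylase genes. It had 7.71 and 7.63 in BC alone and 6.19 and 6.20 in the control, means of 7.67 ± 0.06 and 6.20 ± 0.01 (SD, n = 2) and a difference of 1.48 ± 0.29 with limma adjusted p = 0.842. Both BC alone arrays were above both control arrays. In this list 6 of 9 genes had a higher mean, 3 of 9 against control replicate 1 alone and 7 of 9 against control replicate 2 alone. All 9 had a mean above 4.46. A higher mean was seen for 46.7% of all genes, and for 65.5% without those below that line. The groups did not overlap for 5 of 9, 3 higher and 2 lower, beside 36.4% of all genes. At least 2-fold without overlap was 1 of 9, Kmt2b, beside 5.69% of all genes. Men1, a partner of that enzyme, had 6.23 and 6.51 against 5.88 and 5.62, while Wdr5, a shared core subunit, was lower without overlap, at 6.77 and 7.14 against 7.59 and 7.36. Of 13 genes of retinoic acid signalling and other upstream regulators 4 had a higher mean, beside 46.7% of all genes. Against control replicate 1 alone it was 7, and against control replicate 2 alone 5. None was 2-fold different without overlap.

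Among 26 other homeobox and patterning genes 11 had a higher mean, beside 46.7% of all genes, with a median difference of -0.05 against -0.04. Against control replicate 1 alone it was 15, and against control replicate 2 alone 10. Prrx1 and Prrx2, related homeobox genes of limb and skin mesenchyme, were the 2 of 26 that reached 2-fold without overlap, beside 5.69% of all genes. Prrx1 had 8.85 and 7.84 against 7.02 and 5.89, and Prrx2 had 6.46 and 5.47 against 4.10 and 4.42. All BC alone values of both genes were above all control values, with differences of 1.89 ± 0.54 and 1.71 ± 0.43 (limma adjusted p = 0.842 for both). Prrx1 passed with the replicate number as a block (limma adjusted p = 0.039) and Prrx2 with an intensity trend (limma adjusted p = 0.039), settings under which 0.632% and 0.567% of all genes passed. Tbx15, a T-box gene of the trunk skin, had 5.12 and 3.82 against 3.79 and 4.45, with overlap between the groups. The fibroblast markers given above were also higher in mean in BC alone, and their part in the Prrx values was not tested.

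**Figure D4:**
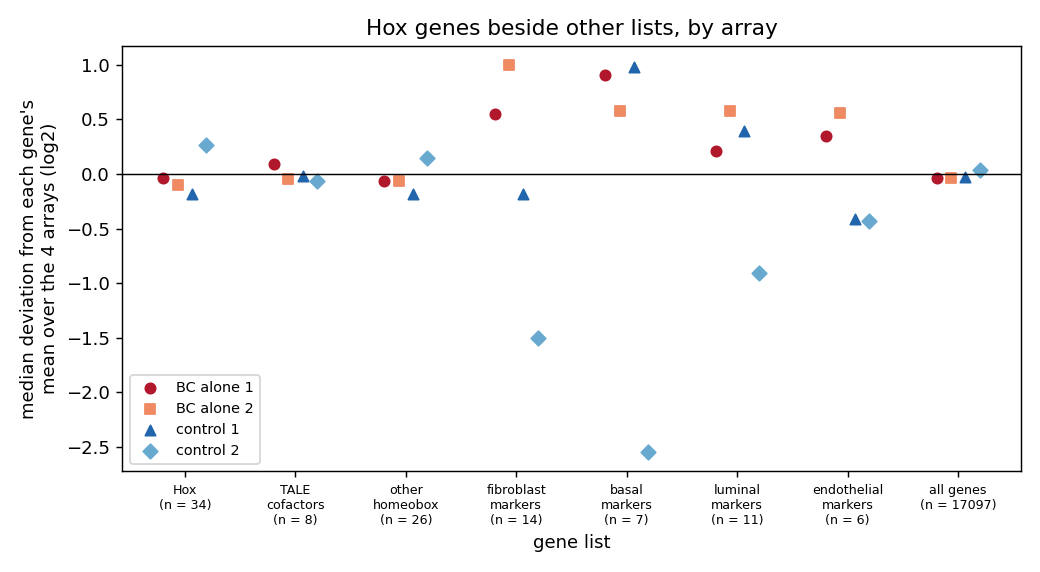
Median deviation, in log2 units, of the genes of each list from their own mean over the 4 arrays, 1 point per array. Hox genes deviate from -0.18 on control replicate 1 to 0.27 on control replicate 2, while fibroblast markers run from 1.00 on BC alone replicate 2 to -1.50 on control replicate 2.

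Of non-coding transcripts of the Hox clusters, the 4 with a probe set of their own, Hoxa11os, Hoxaas2, Hoxb5os and Hoxd3os1, had differences of -0.01, 0.01, -0.10 and -0.18, and none varied by more than 0.34 over the arrays.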

How the data were processed

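RNA of sorted cells was made into cDNA labelled with an Affymetrix kit and read on arrays, per the labels' protocols. What the authors deposited is log2 expression per probe set for 45141 probe sets. RMA and affy are named in the submitters' processing notes, without a version. The genome build is not given in the sources used here. RMA usually corrects background, normalises quantiles and summarises probes, but the deposited columns differ in spread, so a joint normalization is not assumed here. Probe sets were named from the platform annotation, and the 28898 with a single symbol gave 17097 genes, each by its brightest probe set over all arrays, with no filter on dim genes. All 34 Hox genes matched the RefSeq table by Entrez identifier.

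BC alone was compared with control in limma 3.58.1 under R 4.3.3 (lmFit and eBayes, two-sided, Benjamini-Hochberg over all genes, threshold 0.05). The fit had 2 residual and 3.50 prior degrees of freedom. It was tested on simulated data with independent normal noise, of equal variance on all arrays for a given gene. Whether the deposited arrays meet that setting was not tested. Over all genes the median gap between replicates was 0.20 in BC alone and 0.52 in the control. No conclusion on these data is drawn from the simulation. Lists are given by counts and medians, with no test. Named members were those at least 2-fold different without overlap (none), those with a mammary role, and those of smallest and widest spread. Of each related list up to 3 genes with the smallest p could be named. Prrx1, Tbx15 and Meis1 were named whatever their values. Alternatives were 3 scalings between arrays (quantile normalization of the deposited values, median centring, cyclic loess), an intensity trend, a robust variance, probe sets averaged per gene, no genes with a mean below 4.46, the replicate number as a block, and each array left out in turn. The members and lists were chosen with earlier results of these data known.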

Additional observations from a re-analysis of the deposited data

How the results depend on the processing

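No Hox gene passed under any of the 12 alternatives run, and over all genes 97 passed with an intensity trend (0.567%), 108 with the replicate number as a block (0.632%) and 0 otherwise. The labels do not say that replicate numbers pair arrays, and same-numbered arrays deviated with a correlation of -0.02 over genes. The replicate block called 1 of the other homeobox and patterning genes, Prrx1, and the intensity trend Prrx2.

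Hox genes 2-fold different without overlap numbered 1 after cyclic loess, Hoxc10, and 1 to 3 without 1 array. The median difference of posterior genes ran from -0.33 to 0.10 without 1 array. Without dim genes Hoxd9 alone was left of its cluster, at 0.82. The sign of Hoxa9 turned under quantile normalization of the deposited values (0.015), median centring (0.06) and cyclic loess (0.0824), and that of Hoxb9 under the first and last (0.0038 and 0.0399). Without 1 array, signs turned within these ranges: Hoxa5 -0.07 to 0.42, Hoxa9 -0.33 to 0.20, Hoxb5 -1.22 to 0.24, Hoxb7 -1.615 to 0.025, Hoxb9 -0.335 to 0.025, Hoxc8 -0.455 to 1.295, Hoxc9 -0.695 to 0.405, Hoxd8 -0.135 to 0.915 and Tbx15 -0.30 to 1.00. Hoxa2, Hoxb8, Hoxd9 and Meis1, whose groups overlap, kept their sign in each alternative that held them. Causes of these changes were not tested, beyond the array or genes left out. Of the 34 members 24 had a mean below 4.46, and whether low signal limited these results was not tested.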
